A study of Homo sapiens with 15 samples.

Results

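The long arm of chromosome 13 between 75 and 100 Mb (hg19 coordinates, counted from 1) held 3802 ChIP-seq peaks in 6 peak lists, out of 198298 peaks on all chromosomes. A peak was placed by its summit, and every peak of every list with its summit in this interval was taken. The interval was chosen on the peak density and the counts of line-specific peaks in these same lists, so those counts are given below as a description, with no test. The remainder of chromosome 13, with 3937 peaks, served as the reference.

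The lists come from TF-1, a human erythroleukemia line, transduced with a doxycycline-inducible vector for RAD21 in its wild-type form (WT) or as Q592*, which a premature stop codon truncates. All cells, the WT controls included, carried a vector and received doxycycline for 6 days. GATA2, RUNX1 and SMC3 were each precipitated in both lines, with 2 libraries per line and target except for Q592* RUNX1, which has 1, and 4 input libraries bring the total to 15. Each list is 1 pooled call for a line and a target, so no replicate spread exists for any value here, and the 95% intervals below (Wilson) cover counting error only.

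Cohesin is a protein ring, closed by RAD21 and built on SMC3 and its partner SMC protein, that tethers sister chromatids and extrudes chromatin loops, many of them anchored where CTCF stops the ring. GATA2 is a zinc-finger factor of blood stem and progenitor cells, and RUNX1 is the DNA-binding subunit of core-binding factor; both occupy enhancers of blood cells, often together. Genes of the cohesin ring are recurrently mutated in myeloid leukemia. A peak caller such as MACS2 compares the ChIP reads at a site with a local background taken from an input library, so a peak list depends on both.

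The segment was dense in peaks of all 3 targets, and most so in the WT line. The WT line had 1232 GATA2 peaks in its 25 Mb, or 49.3 per Mb, against 11.1 per Mb over the 71 other 1 Mb windows of chromosome 13 that lie between the first and the last peak. That is a 4.46-fold higher density. In Q592* cells 1103 GATA2 peaks gave 44.1 per Mb against 18.0 per Mb, or 2.45-fold. Both lines therefore had more GATA2 peaks per Mb here than on the remainder, with the larger fold in WT.

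For RUNX1, the WT list had 317 peaks in the segment (12.7 per Mb against 2.66, 4.76-fold) and the Q592* list 209 (8.36 per Mb against 4.55, 1.84-fold). For SMC3 the counts were 603 in WT (24.1 per Mb against 10.7, 2.26-fold) and 338 in Q592* (13.5 per Mb against 8.46, 1.60-fold). The order of the lines was the same for all 3 targets. The segment took up 3.16% of all WT GATA2 peaks, 3.30% of WT RUNX1 peaks and 1.42% of WT SMC3 peaks. The corresponding shares of the Q592* lists were 1.87%, 1.34% and 1.03%.

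The balance between the lines turned over inside the segment for GATA2 and RUNX1. Over all chromosomes the WT list was the shorter one for both factors, with 0.660 WT peaks per Q592* peak for GATA2 and 0.616 for RUNX1, and the remainder of chromosome 13 was close to that, at 0.613 and 0.585. Inside the segment the ratio was 1.12 in the case of GATA2, and RUNX1 stood at 1.52. SMC3, for which the WT list was the longer one, went from 1.26 on the remainder of the chromosome (1.29 over all chromosomes) to 1.78. All 3 ratios were thus higher in the segment than on the remainder.

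**Figure D1:**
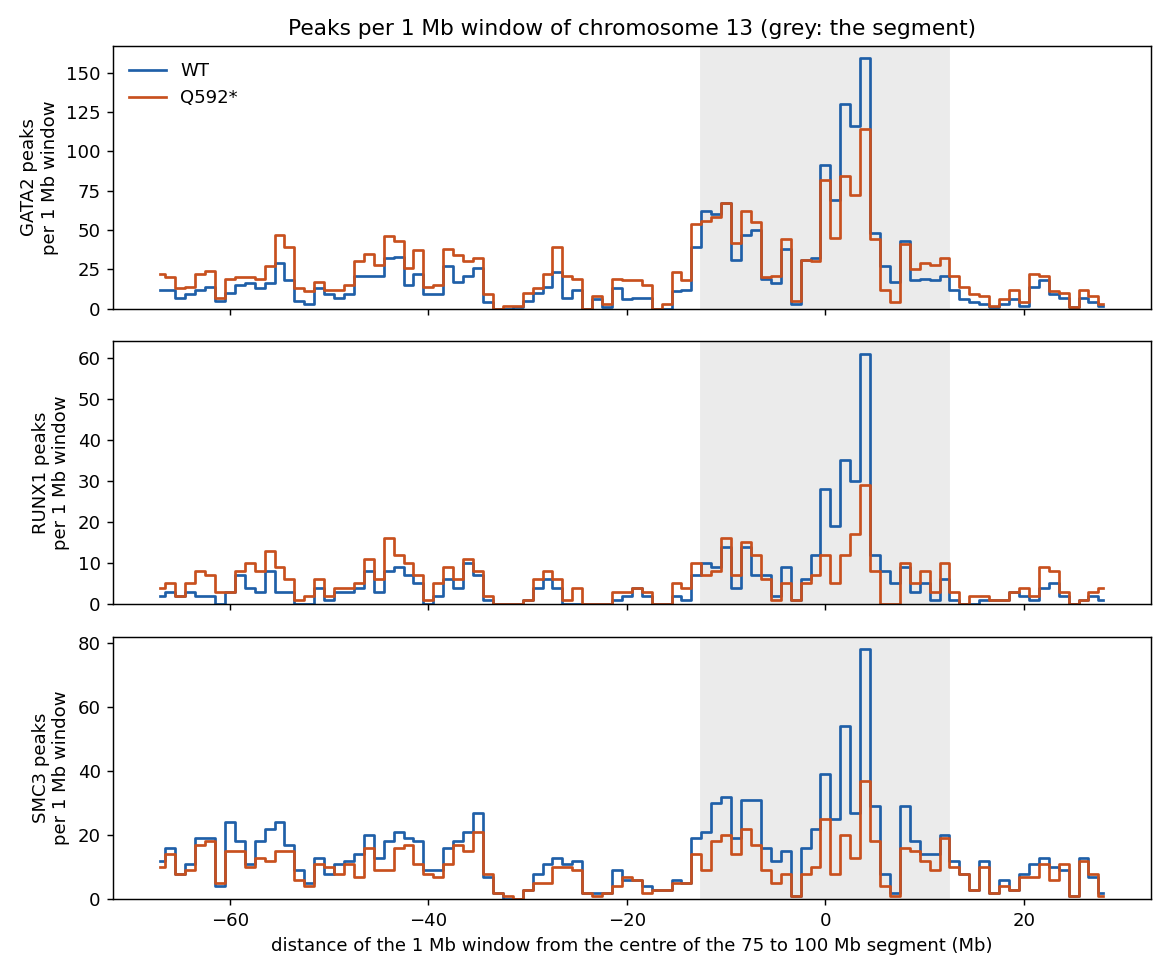
Number of peaks per 1 Mb window of chromosome 13 (y axis) against the distance of the window from the centre of the segment in Mb (x axis), for GATA2, RUNX1 and SMC3 from top to bottom, with WT in blue and Q592* in orange and the segment shaded. The highest window, from 91 to 92 Mb, held 159 WT and 114 Q592* GATA2 peaks.

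A peak is called line-only here when no peak of the other line for the same target overlaps it by at least 1 bp, and shared otherwise. In the segment 546 of the 1232 WT GATA2 peaks were WT-only (44.3%, 41.6 to 47.1%), against 60 of 785 on the remainder of chromosome 13 (7.64%) and 13.1% of the WT GATA2 list over all chromosomes. The Q592* list had 428 Q592*-only GATA2 peaks in the segment (38.8%) and 569 on the remainder (44.4%), beside 43.5% over all chromosomes. The interval was chosen on these counts, so nothing is read from their distance to the genome-wide shares or to the remainder. The WT-only share was higher in the segment than on the remainder, and the Q592*-only share lower.

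RUNX1 gave a like picture. Of the WT RUNX1 peaks in the segment, 189 were WT-only (59.6%, 54.1 to 64.9%), against 19 on the remainder (10.1%) and 17.2% of the whole list. Q592*-only RUNX1 peaks numbered 82 in the segment (39.2%) and 154 on the remainder (47.7%), beside 49.1% of the whole list. For the cohesin subunit SMC3, 329 WT peaks of the segment were WT-only (54.6%, 50.6 to 58.5%), against 222 on the remainder (29.3%) and 29.4% of the whole list. Q592*-only SMC3 peaks numbered 65 (19.2%) and 69 (11.5%), beside 9.41% of the whole list. SMC3 was therefore the target for which both line-only shares were higher in the segment than on the remainder.

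Among the line-only peaks of both lines, 56.1% of GATA2 (52.9 to 59.1%), 69.7% of RUNX1 (64.0 to 74.9%) and 83.5% of SMC3 (79.5 to 86.8%) belonged to WT in the segment. On the remainder these shares were 9.54%, 11.0% and 76.3%. By window, WT-only peaks outnumbered Q592*-only peaks in 12 of the 25 windows for GATA2, 15 for RUNX1 and 24 for SMC3. On the remainder this was so in 0 of 71 windows for GATA2, 0 for RUNX1 and 49 for SMC3.

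**Figure D2:**
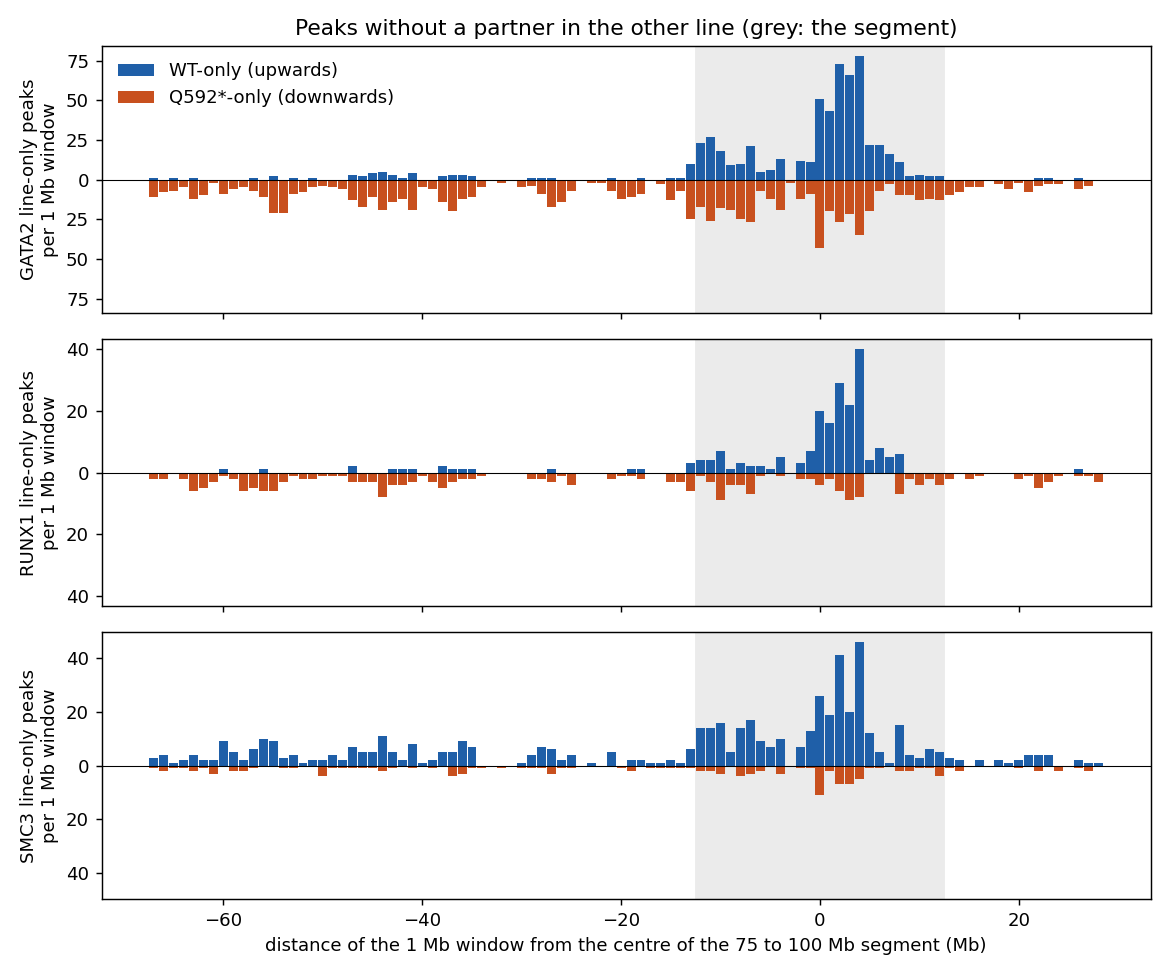
Line-only peaks per 1 Mb window (y axis, WT-only upwards in blue, Q592*-only downwards in orange) against the distance of the window from the centre of the segment in Mb (x axis), for GATA2, RUNX1 and SMC3 from top to bottom, with the segment shaded. WT-only GATA2 and RUNX1 peaks are rare outside the shaded range and reach 78 and 40 per window inside it, and the last 4 shaded windows hold few of them.

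For the transcription factors the excess of WT-only over Q592*-only peaks was not seen at a common −log10 q threshold of 10. Such a threshold is not the same strength in both lines. Shared GATA2 peaks on the remainder had a median −log10 q of 13.3 in WT and 30.3 in Q592*. When only peaks with a −log10 q of at least 10 were kept in both lists, the segment held 72 WT-only and 242 Q592*-only GATA2 peaks, and 20 WT-only and 50 Q592*-only RUNX1 peaks, so Q592*-only peaks were then the more numerous. SMC3 kept 80 WT-only against 18 Q592*-only peaks. With both lists of a target cut to the length of the shorter one, GATA2 had 735 WT-only against 103 Q592*-only peaks and RUNX1 230 against 23, while SMC3 turned to 90 against 106. Which line has more line-only peaks in the segment thus depended on the threshold for GATA2 and RUNX1 and on the list lengths for SMC3.

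Under each of the 5 alternative rules, as under the first one, the WT share of line-only peaks was higher in the segment than on the remainder. The interval was chosen on line-only counts of these lists, so this order is no independent support for the contrast. With the −log10 q threshold of 10, the WT share of line-only GATA2 peaks was 22.9% in the segment and 7.30% outside it. With equal list lengths it was 87.7% and 42.5%. For RUNX1 these pairs were 28.6% and 5.17%, then 90.9% and 50.6%. For SMC3 they were 81.6% and 64.5%, then 45.9% and 41.1%. The last SMC3 pair rests on 90 WT-only and 106 Q592*-only peaks in the segment, and 83 and 119 on the remainder. Its shares are close, and no interval was computed for them. As a ratio of the shares, the SMC3 contrast was the smallest of the 3 in both settings.

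The windows of 1 Mb do not fill the segment evenly. They were divided into 4 stretches after they had been seen, at 75 to 81, 81 to 87, 87 to 96 and 96 to 100 Mb, so the stretches are a description only. From 75 to 81 Mb both lines were dense in GATA2 peaks, with 317 in WT and 340 in Q592*, of which 108 were WT-only and 132 Q592*-only. RUNX1 had 58 and 65 peaks there, with 21 WT-only and 28 Q592*-only, and SMC3 164 and 100, with 80 and 14. In this stretch WT and Q592* were near parity for the transcription factors, whereas outside the segment Q592* was ahead.

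The stretch from 81 to 87 Mb was sparser. It held 139 WT and 151 Q592* GATA2 peaks (23.2 and 25.2 per Mb), 37 and 25 RUNX1 peaks, and 82 and 41 SMC3 peaks. The window from 84 to 85 Mb was nearly empty, with 3 WT and 5 Q592* GATA2 peaks and 1 peak per line for RUNX1 and for SMC3. The line-only peaks of the whole stretch from 81 to 87 Mb were 47 WT-only and 61 Q592*-only for GATA2. RUNX1 had 18 and 6, and SMC3 46 and 7. RUNX1 was thus already on the WT side here, and GATA2 was not.

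Most of the WT-only sites lay between 87 and 96 Mb. GATA2 had 700 WT peaks there (77.8 per Mb) and 498 in Q592* (55.3 per Mb), with 382 WT-only and 187 Q592*-only. RUNX1 had 207 and 93, with 150 WT-only and 36 Q592*-only, and SMC3 291 and 142, with 185 and 36. The WT list exceeded the Q592* list 1.41-fold for GATA2, 2.23-fold for RUNX1 and 2.05-fold for SMC3. WT-only peaks outnumbered Q592*-only peaks for GATA2 in each of the 9 windows of this stretch.

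The window from 91 to 92 Mb was the densest of chromosome 13 in all 6 lists. It held 159 WT and 114 Q592* GATA2 peaks, of which 78 and 35 were line-only. For RUNX1 the counts were 61 and 29, with 40 and 8 line-only, and for SMC3 78 and 37, with 46 and 5. The windows before it were also high for WT GATA2, with 91 peaks at 87 to 88 Mb, 69 at 88 to 89, 130 at 89 to 90 and 116 at 90 to 91. Q592* GATA2 had 82, 45, 84 and 72 peaks in the same windows. WT was higher in each of these windows, by a margin between 9 and 46 peaks.

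Between 93 and 95 Mb the lists thinned out, and more so in Q592*. WT kept 44 GATA2 peaks against 16, of which 38 were WT-only and 10 Q592*-only. RUNX1 had 13 WT peaks and 0 Q592* peaks in these 2 Mb, and SMC3 had 10 and 5. The 0 is a statement about called peaks, since sites below the threshold of the list are not in it. The window from 95 to 96 Mb then returned to parity for GATA2, with 43 and 41 peaks, 11 and 10 of them line-only.

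In the last 4 Mb, from 96 to 100, the balance between the lines was that of the remainder of the chromosome, while the density stayed above it. GATA2 peaks numbered 19.0 per Mb in WT and 28.5 in Q592*, against 11.1 and 18.0 per Mb on the whole remainder. The part above 100 Mb was sparser, at 6.19 and 10.2 per Mb. GATA2 had 76 WT and 114 Q592* peaks, a ratio of 0.667, with 9 WT-only and 48 Q592*-only. RUNX1 had 15 and 26, a ratio of 0.577, with 0 WT-only and 12 Q592*-only. SMC3 had 66 and 55, with 18 and 8 line-only. For comparison, from 100 Mb to the last peak the ratio of WT to Q592* peaks was 0.604 for GATA2 and 0.543 for RUNX1. The interval of 75 to 100 Mb is therefore wider at its upper end than the stretch in which WT-only peaks were frequent.

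The borders were placed for each target on its own by scoring every line-only peak of the chromosome. A WT-only peak scored the log of the ratio of the WT-only shares inside and outside 75 to 100 Mb, a Q592*-only peak the log of the ratio of the complementary shares, and the run of consecutive peaks with the highest summed score was taken. For GATA2 this run went from 74543763 to 96199965, or 21.7 Mb, and held 549 WT-only and 396 Q592*-only peaks. The WT-only share was 58.1% in it and 8.66% outside. For RUNX1 it went from 74890779 to 95465453, or 20.6 Mb, with 190 WT-only and 65 Q592*-only peaks (74.5% against 9.52% outside). For SMC3 it went from 75149401 to 95925832, or 20.8 Mb, with 311 and 54 (85.2%), against 240 and 80 outside. The lower borders of the 3 targets spanned 0.606 Mb and the upper ones 0.735 Mb. The scores were set from the shares inside and outside 75 to 100 Mb, which draws all 3 targets to the same interval, so this closeness is no sign of stability.

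The lower borders fell where the peaks became dense. GATA2 counts rose from 12 in WT and 18 in Q592* at 73 to 74 Mb to 39 and 54 at 74 to 75 Mb, and to 62 and 56 at 75 to 76 Mb. Line-only GATA2 peaks were 1 and 7, then 10 and 25, then 23 and 17 in these windows, so density rose 1 window before WT-only peaks overtook. The first peak inside the GATA2 run was a WT-only peak at chr13:74543740-74543989 with a −log10 q of 5.04 and a fold enrichment of 3.57. The last one before it was Q592*-only, at chr13:74495061-74495236, with a −log10 q of 6.06 and a fold of 3.57. For RUNX1 the run began at chr13:74890696-74890947 (−log10 q 6.13), and for SMC3 at chr13:75149335-75149474 (−log10 q 5.59). All of these are weak peaks of their lists, and the border of a single target rests on them.

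At the upper side the GATA2 run ended with a WT-only peak at chr13:96199859-96200008 (−log10 q 4.12, fold 3.40), and a Q592*-only peak began 205 bp further on, at chr13:96200213-96200421. The RUNX1 run ended at chr13:95465401-95465545, and the next line-only RUNX1 peaks were 3 Q592*-only ones, the first at chr13:95895615-95895762 with a −log10 q of 15.4. The SMC3 run ended at chr13:95925809-95925986. Under alternative rules the upper border of GATA2 stayed between 95.3 and 96.3 Mb. That of RUNX1 moved to 91789248 for peaks with a −log10 q of at least 10, and that of SMC3 to 87459312 with equal list lengths and to 110377792 when every line-only peak counted alike.

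The lower border was less stable than the upper one. For GATA2 it moved to 76560115 at a −log10 q of at least 10, and to 85510396 when WT-only and Q592*-only peaks counted +1 and −1. For RUNX1 the lower border moved to between 67798513 and 81256153, and for SMC3 to between 20986210 and 68310841. The SMC3 lists, in which WT-only peaks prevail on the whole chromosome, thus place the lower border poorly.

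The strongest sites of the segment were shared by both lines, and the leading ones were among the strongest of their whole lists. The WT GATA2 peak at chr13:91795529-91796924 had a −log10 q of 656.9, a fold enrichment of 26.6 and 728 ChIP reads over its summit, and ranked 3 among 38962 peaks. A second at chr13:91736730-91737885 had 545.7, a fold of 30.2 and 571 reads, and ranked 4. Another, at chr13:95314310-95315023, had 451.1 and a fold of 21.9. Each overlapped RUNX1 and SMC3 peaks in WT and peaks of all 3 targets in Q592*. In the Q592* list the partners of the first and the second had −log10 q values of 569.1 and 730.9, with folds of 18.8 and 33.4.

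In Q592* the second strongest GATA2 peak of the segment lay at chr13:79220892-79221667, with a −log10 q of 609.3 and a fold of 32.6. RUNX1 was strongest at the same place as WT GATA2, at chr13:91796071-91796789 in WT (−log10 q 232.9, fold 14.8, rank 5 of 9603) and at chr13:91796122-91796788 in Q592* (334.5, fold 12.2). A second RUNX1 site at chr13:92876613-92877162 had 147.7 in WT, and its Q592* partner 257.5. The summits of the WT GATA2 and RUNX1 peaks at the leading site were 6 bp apart. Each of these transcription factor sites was called in both lines, and the strongest of each of the 4 lists lay in the window from 91 to 92 Mb.

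The leading SMC3 peaks lay in the lower stretch and between 87 and 96 Mb. In WT the peak at chr13:77477501-77478210 had a −log10 q of 300.3, a fold of 36.3 and rank 10 of 42353. Others lay at chr13:77046923-77048117 (270.7) and chr13:89719031-89720145 (250.1). The Q592* list had its strongest at the second of these places, at chr13:77046796-77048172, with 253.1 and a fold of 26.7. Its next ones were at chr13:95272462-95273138 (229.2) and chr13:89719003-89720158 (214.6). Over all shared WT SMC3 peaks the median −log10 q was 19.5 from 75 to 81 Mb, 26.0 from 87 to 96 Mb and 26.4 from 96 to 100 Mb, so the leading peak does not stand for its stretch. All 3 WT sites overlapped WT GATA2 peaks, and the last also a RUNX1 peak.

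Line-only peaks were far weaker. The highest −log10 q among WT-only peaks was 16.6 for GATA2 (chr13:76667364-76667685, fold 5.51, 48 reads), 14.2 for RUNX1 (chr13:83139437-83139649, fold 5.73) and 25.6 for SMC3 (chr13:88652122-88652285, fold 5.83). The WT-only GATA2 peak ranked 15077 in its list. Among Q592*-only peaks the highest were 39.7 for GATA2 (chr13:76362643-76362980), 31.1 for RUNX1 (chr13:99128833-99129040) and 17.0 for SMC3 (chr13:87627307-87627495). The leading Q592*-only RUNX1 peak lies above the upper border. No line-only peak of the segment reached a −log10 q of 50, while 76 of the shared WT GATA2 peaks did.

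Within each list, peaks of the segment were weaker by fold and by q than peaks of the same class on the remainder of the chromosome, although more reads lay under them. WT-only GATA2 peaks had a median −log10 q of 5.04 in the segment and 5.92 outside, a median fold of 3.11 and 3.82, and a median of 34 and 29 ChIP reads over the summit. Shared WT GATA2 peaks had medians of 11.9 and 13.3, folds of 4.06 and 4.97, and 53 and 44 reads. Shared Q592* GATA2 peaks had 18.9 and 30.3, folds of 4.74 and 7.45, and 82 and 79 reads. In both GATA2 lists the shared peaks of the segment thus had more reads and a lower fold.

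The same order held in the other lists. Shared RUNX1 peaks had median folds of 4.31 in the segment and 5.11 outside in WT, and 4.56 and 6.69 in Q592*. Their reads were 54 and 44 in WT, and 85 and 72 in Q592*. Shared SMC3 peaks had folds of 5.57 and 7.17 in WT, and 4.59 and 6.45 in Q592*. The median fold and the median −log10 q were lower in the segment, and the median reads higher, in all 6 lists for shared peaks and in all 6 for line-only peaks. In the stretch with the most peaks, from 87 to 96 Mb, shared GATA2 peaks of WT had a median fold of 3.60 over 58 reads, and those of Q592* 4.03 over 85 reads. These folds were the lowest of the 4 stretches in either line, and the reads the highest.

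**Figure D3:**
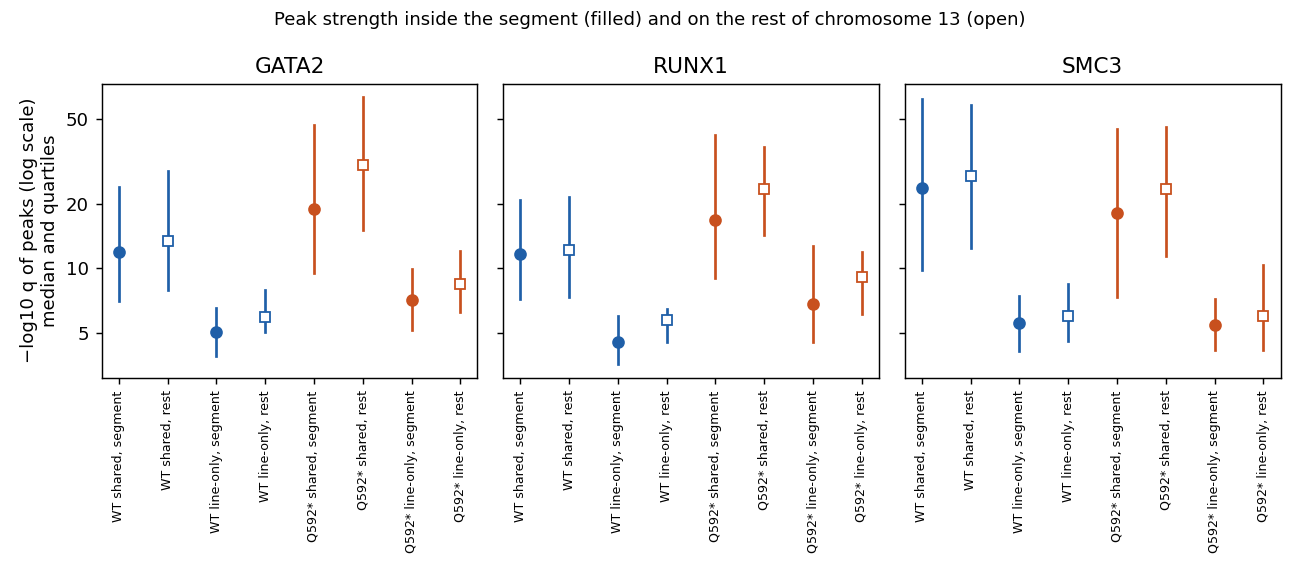
Median −log10 q (points) with quartiles (lines) on a log axis for shared and line-only peaks of each list, inside the segment (filled circles) and on the remainder of chromosome 13 (open squares), with WT in blue and Q592* in orange. Line-only medians lie between 4.51 and 9.08 and shared medians between 11.6 and 30.3, and each filled point is below its open neighbour.

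The local background is no separate observation, since more reads with a lower fold at a peak already entail a higher background. The fold and the p-value of a peak together give the number of ChIP reads over its summit and the background that MACS2 set there, and this background is expressed here relative to the genome-wide background of the same list, which is the lowest value it can take and equals 1. It exceeded 2 at 38.6% of WT GATA2 peaks in the segment (35.9 to 41.3%) and at 12.6% on the remainder. In Q592* the shares were 56.8% (53.9 to 59.7%) and 16.3%. The values for RUNX1 were 44.2% and 18.0% in WT, and 73.7% and 27.2% in Q592*. For SMC3 they were 49.9% and 23.1% in WT, and 63.9% and 31.3% in Q592*. In all 6 lists a larger share of peaks had a background over 2 in the segment than on the remainder, and within the segment the share was larger in Q592* for each target.

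Shared sites allow the lines to be set side by side at the same places. At the 686 shared WT GATA2 peaks of the segment the median relative background was 1.89 in WT and 2.43 at the Q592* partners, which were higher at 552 of them (80.5%, 77.3 to 83.3%). On the remainder it was 1.13 and 1.49, with Q592* higher at 496 of 725 (68.4%, 64.9 to 71.7%). RUNX1 sites had 2.17 in WT and 2.94 in Q592*, which was higher at 106 of 128 (82.8%), against 110 of 170 on the remainder (64.7%). SMC3 sites had 2.47 and 2.96, with Q592* higher at 185 of 274 (67.5%), against 298 of 536 (55.6%). Q592* was the line with the higher median relative background in each case. The background has a floor of 1, and sites where both lines stand at it count as not higher. Shared WT GATA2 peaks stood above the floor at 93.6% in the segment and at 60.6% on the remainder. For shared WT SMC3 peaks these shares were 93.4% and 69.4%. The larger shares of sites with Q592* higher in the segment are therefore not read as a difference from the remainder.

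The background was highest in the stretch that held most of the WT-only sites. At shared sites from 87 to 96 Mb the median GATA2 background was 2.46 in WT and 3.20 in Q592*. RUNX1 sites had 2.90 and 4.36, and SMC3 sites 3.09 and 4.39. From 96 to 100 Mb the WT and Q592* medians were 1.22 and 1.76 at GATA2 sites, 1.37 and 1.52 at RUNX1 sites, and 1.48 and 1.80 at SMC3 sites. Over all 3 targets, the window from 91 to 92 Mb had the highest Q592* median, 4.14, beside 2.74 in WT. It held 78 WT-only and 35 Q592*-only GATA2 peaks. Single windows of this stretch did not all have this pairing. At 93 to 94 Mb, with 22 WT-only and 7 Q592*-only GATA2 peaks, the medians were only 1.34 in WT and 1.56 in Q592*. At 95 to 96 Mb, with 11 and 10, they were 2.81 and 3.31. Q592* was higher in 22 of the 23 windows of the segment that had at least 10 peaks per line, and in 43 of 56 windows elsewhere on the chromosome. Some of the windows elsewhere, such as 39 to 40 and 59 to 60 Mb, had both medians at the floor of 1 and count as not higher. In the segment the lowest medians were 1.11 in WT and 1.31 in Q592*, so these counts are not alike. The part of the local background in the WT-only calls was not tested, and a higher background in one line cannot be told apart here from a change of occupancy as the reason a site is called in the other line alone.

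**Figure D4:**
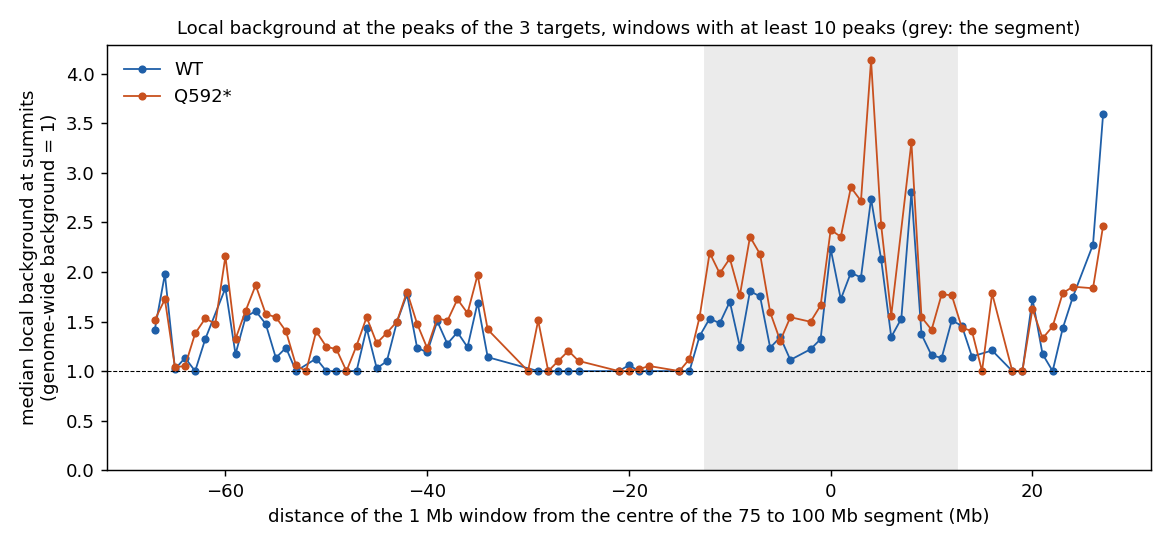
Median local background at peak summits of the 3 targets, relative to the genome-wide background of each list (y axis, dashed line at 1), against the distance of the 1 Mb window from the centre of the segment in Mb (x axis), with WT in blue, Q592* in orange, the segment shaded, and windows of at least 10 peaks shown. In the segment WT medians run from 1.11 to 2.81 and Q592* medians from 1.31 to 4.14, and on the remainder they run from 1.00 to 3.59 and from 1.00 to 2.46.

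Line-only GATA2 peaks mostly stood alone. Of the 546 WT-only GATA2 peaks in the segment, 455 (83.3%) overlapped neither a RUNX1 nor an SMC3 peak of WT, 40 overlapped RUNX1 and 59 overlapped SMC3. On the remainder 51 of 60 (85.0%) stood alone. Among the 686 shared GATA2 peaks of the segment, 136 (19.8%) overlapped RUNX1 and 221 (32.2%) overlapped SMC3, and 61.5% stood alone. At 529 of the 546 WT-only sites no peak of any of the 3 targets was called in Q592*, where GATA2 is absent by definition. The WT-only GATA2 sites thus had fewer partners than the shared ones in the segment, much as on the remainder.

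RUNX1 and SMC3 line-only sites had partners more often. In the segment the WT lists held 1232 GATA2, 317 RUNX1 and 603 SMC3 peaks, so GATA2 partners were the most numerous. The shares of different targets are therefore not alike. WT GATA2 peaks overlapped 78 of the 189 WT-only RUNX1 peaks (41.3%, 34.5 to 48.4%), and Q592* GATA2 peaks overlapped 48 of them (25.4%). On the remainder WT GATA2 peaks overlapped 12 of 19 WT-only RUNX1 peaks (63.2%). At shared RUNX1 peaks of the segment the share with WT GATA2 was 81.2% (104 of 128). WT GATA2 peaks overlapped 181 of the 329 WT-only SMC3 peaks (55.0%, 49.6 to 60.3%), and 143 of these 329 (43.5%) overlapped a GATA2 peak in Q592*. On the remainder WT GATA2 peaks overlapped 104 of 222 WT-only SMC3 peaks (46.8%). In the Q592* line, 152 of the WT-only SMC3 sites of the segment (46.2%) had a peak of some target, and 52.3% did on the remainder. For WT-only GATA2 sites these were 17 (3.11%) and 6.67%. By definition a WT-only GATA2 site has no Q592* GATA2 peak, so the values of SMC3 and GATA2 cannot be set against each other.

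Shared SMC3 peaks lay at GATA2 peaks more often inside the segment. Among shared SMC3 peaks of WT, 105 of 274 in the segment (38.3%, 32.8 to 44.2%) overlapped a GATA2 peak, against 73 of 536 on the remainder (13.6%, 11.0 to 16.8%). In Q592* the shares were 113 of 273 (41.4%) and 102 of 532 (19.2%). Counted from the GATA2 side, shared peaks had the same order. They overlapped SMC3 peaks of their own line at 32.2% in the segment and 23.0% on the remainder in WT. In Q592* these were 16.4% and 12.1%. Line-only GATA2 peaks did not have this order, at 10.8% and 11.7% in WT, and 4.21% and 5.98% in Q592*. All 3 targets coincided at 73 of 128 shared WT RUNX1 peaks in the segment and at 68 of 170 on the remainder. The density of GATA2 peaks, which was 4.46-fold higher here in WT, moves with these shares, and its part in them was not tested.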

How the data were processed

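The authors deposited 6 lists of peaks in narrowPeak form, 1 per line and target, whose peak names mark them as merged over libraries. Alignment and calling involved Bowtie2, Picard and MACS2 on hg19, per the submitters' processing notes. The sources used here give neither their versions and settings nor the inputs behind each list. Each deposited fold is the ratio of summit pileup to local background, each with 1 added. The −log10 q-value and −log10 p-value, also deposited, belong to the same summit, and the deposited score was not used. The lowest deposited −log10 q was between 2.00 and 2.05. These values served to describe peaks within a list. The relative background derived from them was also compared between the lines, although the inputs behind each list are not known. For some shared peaks the −log10 q and fold of the partner in the other line were given beside their own.

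The worth of 1 ChIP read relative to the background was fitted per list from fold and −log10 p. It gave whole reads within 0.002 of the deposited −log10 p at 99.9% to 100% of peaks, and at no more than 1.71% with a worth wrong by 3%. The scripts were tested on simulated data. Computations ran in Python 3.11.15 with scipy 1.17.1, numpy 2.4.6 and pandas 2.3.3, and plots in matplotlib 3.10.9. Regions named are the 3 strongest peaks and the 3 strongest line-only peaks per list, of which the first are printed, and the peaks next to each border. The interval, the lists and the rules were chosen with earlier results of these data known; the comparison of background at shared peaks was added after the windows had been seen. Genes, motifs and sequences at the peaks were not analysed here.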

Additional observations from a re-analysis of the deposited data

How the results depend on the processing

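No paired analysis was possible because each list merges its libraries without replicate numbers, and for the same reason no library could be left out. Of 30 line-only counts under alternative rules, 13 stayed within 1.5 times the first count. Keeping peaks of −log10 q 10 or more in both lists left 72 WT-only and 242 Q592*-only GATA2 peaks, 20 and 50 RUNX1 peaks, and 80 and 18 SMC3 peaks. With that threshold on the peak alone, an alternative chosen after seeing the data, they were 26 and 106, 9 and 25, and 35 and 4. With equal list lengths, Q592*-only counts were 103 for GATA2 and 23 for RUNX1, and SMC3 had 90 WT-only and 106 Q592*-only peaks. A reciprocal overlap of 50% gave 101 Q592*-only SMC3 peaks. Fewer peaks enter under the threshold and trimming rules, and equal list lengths raised the Q592*-only SMC3 count from 65 to 106. The cause of these changes was not tested. Of 24 border positions under alternatives, 13 stayed within 1 Mb. The threshold of 10 put the lower borders at 76560115 (GATA2), 68068154 (RUNX1) and 68310841 (SMC3), and the upper border of RUNX1 was 91789248. With +1 and −1 as scores the lower borders were 85510396, 81256153 and 20986210, and the upper border of SMC3 was 110377792. Equal list lengths gave lower borders of 67798513 for RUNX1 and 40340172 for SMC3, and an upper border of 87459312 for SMC3. For these borders the cause was not tested. Sites below the threshold of a list cannot be seen, and Q592* RUNX1 rests on 1 library.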

Other observations

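Peaks lay closer together in the segment than elsewhere on chromosome 13, which restates their higher density. The median distance from one WT GATA2 summit to the next was 7.36 kb in the segment and 30.1 kb on the remainder, and 40.2% and 16.2% of these distances were at most 5 kb. For Q592* GATA2 the medians were 9.99 and 19.7 kb, and 34.1% and 21.8% were at most 5 kb. WT RUNX1 had medians of 31.1 and 156 kb, and Q592* RUNX1 48.0 and 79.6 kb. WT SMC3 had 17.6 and 44.3 kb, and Q592* SMC3 32.7 and 64.2 kb. The median distances were shorter in the segment in all 6 lists. The interval was chosen on peak density in these lists, so this order is no independent support for the contrast.

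Q592*-only RUNX1 sites of the segment lay at GATA2 peaks of the Q592* line in 49 of 82 cases (59.8%, 48.9 to 69.7%), and at GATA2 peaks of the WT line in 43 (52.4%). On the remainder these were 111 of 154 (72.1%) and 93 (60.4%). Of the 428 Q592*-only GATA2 peaks in the segment, 397 (92.8%) overlapped neither a RUNX1 nor an SMC3 peak of the same line, against 505 of 569 on the remainder (88.8%). The 65 Q592*-only SMC3 peaks stood alone in 40 cases (61.5%, 49.4 to 72.4%). These shares are descriptions of 1 pooled list per line and target.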
